A study of Homo sapiens with 12 samples.

Results

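The genes described here encode the enzymes that place or remove chemical marks on histones and DNA, with EED, SUZ12 and MEN1, which are partners of such enzymes. They were chosen by gene symbol: the KMT, KDM, KAT, HDAC, SIRT, SETD, PRMT, DNMT, TET and EZH families together with EED, SUZ12, DOT1L, EP300, CREBBP and MEN1. This gave 80 genes of the 13881 listed, and all 80 passed the filter on low values. RNA was sequenced from KG-1 cells given ASLAN003, KG-1 cells given DMSO, MOLM-14 cells given ASLAN003 and MOLM-14 cells given DMSO, with 3 libraries in each group. Both are established human acute myeloid leukaemia lines, and exposure lasted 96 h in every group. ASLAN003 inhibits dihydroorotate dehydrogenase, an enzyme of pyrimidine synthesis, and DMSO is the solvent; no source used here states the dose. Each line is 1 model of the disease, and MOLM-14 is known to carry a fusion of KMT2A with MLLT3. The comparison asked which of these genes changed after ASLAN003 in each line.

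Histone tails carry acetyl and methyl groups that alter how tightly chromatin is packed and which proteins bind it. Acetyltransferases and methyltransferases add these groups, deacetylases and demethylases take them off, and DNA methyltransferases and TET dioxygenases do the same for cytosine methylation. Several of these genes are mutated, fused or used as drug targets in acute myeloid leukaemia, among them KMT2A, DOT1L, MEN1, EZH2, KDM1A, DNMT3A, TET2, CREBBP and EP300.

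The sequences upstream of 4 of these genes are shown as context for the changes described below. HDAC7 and SIRT5 had the largest rise and the largest fall in KG-1, and KDM6A and KDM5B the largest differences between the lines with DMSO, among members whose RefSeq start lay within 30 bases of a GENCODE 29 transcript start (44 of the 74 members with a RefSeq window). KDM6B and TET1, which changed more, are not shown, since these starts lay 5687 and 319 bases apart. Each is the 250 bases before the RefSeq start in GRCh38.p14, 5' to 3' on the gene's strand. HDAC7 is at chr12:47819904-47820153 on the minus strand, SIRT5 at chr6:13574351-13574600 on the plus strand, KDM6A at chrX:44872938-44873187 on the plus strand and KDM5B at chr1:202808422-202808671 on the minus strand. Capitals mark CACGTG (the E-box), CCAAT (the CCAAT box) and GGGCGG (the GC box) on either strand.
HDAC7: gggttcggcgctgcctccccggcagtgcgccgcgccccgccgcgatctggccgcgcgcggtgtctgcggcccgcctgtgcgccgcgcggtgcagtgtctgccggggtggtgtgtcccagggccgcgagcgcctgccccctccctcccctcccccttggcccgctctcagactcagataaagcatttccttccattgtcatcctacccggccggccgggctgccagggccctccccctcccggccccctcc
SIRT5: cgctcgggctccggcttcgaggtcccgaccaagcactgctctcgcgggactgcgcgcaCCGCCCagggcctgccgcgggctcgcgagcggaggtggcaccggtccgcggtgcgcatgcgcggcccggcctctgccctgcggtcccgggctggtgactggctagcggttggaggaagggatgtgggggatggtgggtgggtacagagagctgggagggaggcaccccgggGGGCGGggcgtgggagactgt
KDM6A: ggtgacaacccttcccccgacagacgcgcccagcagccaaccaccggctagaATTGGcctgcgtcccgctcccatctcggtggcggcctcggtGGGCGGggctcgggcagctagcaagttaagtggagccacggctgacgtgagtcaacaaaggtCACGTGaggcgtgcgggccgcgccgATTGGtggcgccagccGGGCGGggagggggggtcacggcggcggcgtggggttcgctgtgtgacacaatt
KDM5B: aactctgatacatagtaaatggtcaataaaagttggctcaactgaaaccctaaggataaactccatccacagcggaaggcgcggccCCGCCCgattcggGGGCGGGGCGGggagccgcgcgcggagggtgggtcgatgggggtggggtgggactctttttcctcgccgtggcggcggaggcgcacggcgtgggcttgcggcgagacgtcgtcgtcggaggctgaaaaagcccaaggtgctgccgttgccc

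The HDAC7 window held none of the 3 motifs but 28 CpG dinucleotides, and the KDM6A window held 1 CACGTG, 2 CCAAT and 2 GGGCGG. Over all members with a window, GGGCGG stood in 44 of 74 (59.5%), against 42.3% of all 27305 RefSeq promoter windows of the same length. CCAAT stood in 24 of 74 (32.4%), against 33.0% of all windows, and CACGTG in 11 of 74 (14.9%), against 6.49%. Further motifs searched on both strands were GGAAGTG, in 8 members (10.8% against 9.47%), TTTCCCGC, in 3 (4.05% against 1.42%), and TTTGGCGC, in 0 (against 0.553%). The median number of CpG dinucleotides was 23 in members, from 2 to 50, and 11 in all windows. These counts use all 74 windows, also those whose 2 starts lay more than 30 bases apart. The lowest, 2 in HDAC4, is such a window, with starts 126168 bases apart. A motif match describes the letters of the window and no more.

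Each library held an estimated 17700000 to 18900000 fragments, read from the steps of its low values. The median SD of the members between replicates, on the log2(FPKM + 1) scale, was 0.116 in KG-1 with ASLAN003, 0.107 in KG-1 with DMSO, 0.239 in MOLM-14 with ASLAN003 and 0.163 in MOLM-14 with DMSO. MOLM-14 ASLAN003 libraries therefore varied most. All libraries held the myeloid genes SPI1, PTPRC and CD33, whereas CD34 did not exceed 0.17 FPKM in them. Markers of monocytes and granulocytes moved with the treatment: their summed level was 26790 to 30782 FPKM in KG-1 with ASLAN003 and 972 to 1308 FPKM with DMSO, and 4044 to 7833 FPKM in MOLM-14 with ASLAN003 and 831 to 905 FPKM with DMSO (9 and 8 of 10 markers called higher in KG-1 and MOLM-14). The summed level of 12 proliferation genes was 923 to 1225 FPKM with ASLAN003 and 1349 to 1447 FPKM with DMSO in KG-1, and 1224 to 1240 FPKM with ASLAN003 and 1256 to 1349 FPKM with DMSO in MOLM-14. The part of either in the changes below was not tested. In bulk RNA, fewer cells of a type and less RNA per cell cannot be told apart.

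In KG-1, ASLAN003 changed 25 of the 80 genes, 16 higher and 9 lower, at an adjusted p under 0.05 by limma. This is 31.25% of the members, against 33.7% of all genes tested (19.4% higher and 14.3% lower), so their share was close to the background. Their median log2 change was 0.15, against 0.05 for all genes, with 51 of 80 above 0 and a range of -0.87 to 1.30. Treated and control libraries did not overlap for 54 members (67.5%, against 55.9% of all genes). The split depended on the scaling: 14 higher and 14 lower after median centring, 15 and 14 after quantile normalization, and 14 and 11 after rescaling. Under the first 2 of these the median over all genes shifted by -0.12 and -0.10. With the KG-1 libraries alone 27 were higher and 14 lower, and with library weights 28 and 15.

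In MOLM-14, ASLAN003 raised 9 of the 80 genes and lowered 0, or 11.25%, against 13.0% of all genes (9.69% higher and 3.33% lower). At an unadjusted p under 0.05, limma had 16 members higher and 3 lower. At the adjusted threshold the split was 3 and 3 after median centring, 3 and 2 after quantile normalization and 6 and 2 after rescaling, and the median of all genes moved by -0.15 and -0.10 under the first 2. The median change of the members was 0.10, against 0.08 for all genes, and 17 members (21.25%, against 25.9%) had no overlap between the groups. With the MOLM-14 libraries alone 1 member was called higher, and with library weights 4. It was 4 without MOLM-14 DMSO replicate 1, and 5 without MOLM-14 DMSO replicate 2 or 3 or MOLM-14 ASLAN003 replicate 1. HDAC4, HDAC5, KDM4A and KMT2C rose in both lines, which is 25% of the 16 that rose in KG-1 and 44.4% of the 9 that rose in MOLM-14. Over all genes tested, 756 rose in both lines, 29.2% of those that rose in KG-1 and 58.4% of those that rose in MOLM-14. After median centring, HDAC4, HDAC5, KDM4A and KMT2C all lost their MOLM-14 calls (limma adjusted p = 0.0552 to 0.244). The same held after quantile normalization (0.0597 to 0.226) and with the MOLM-14 libraries alone (0.111 to 0.196).

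**Figure D1:**
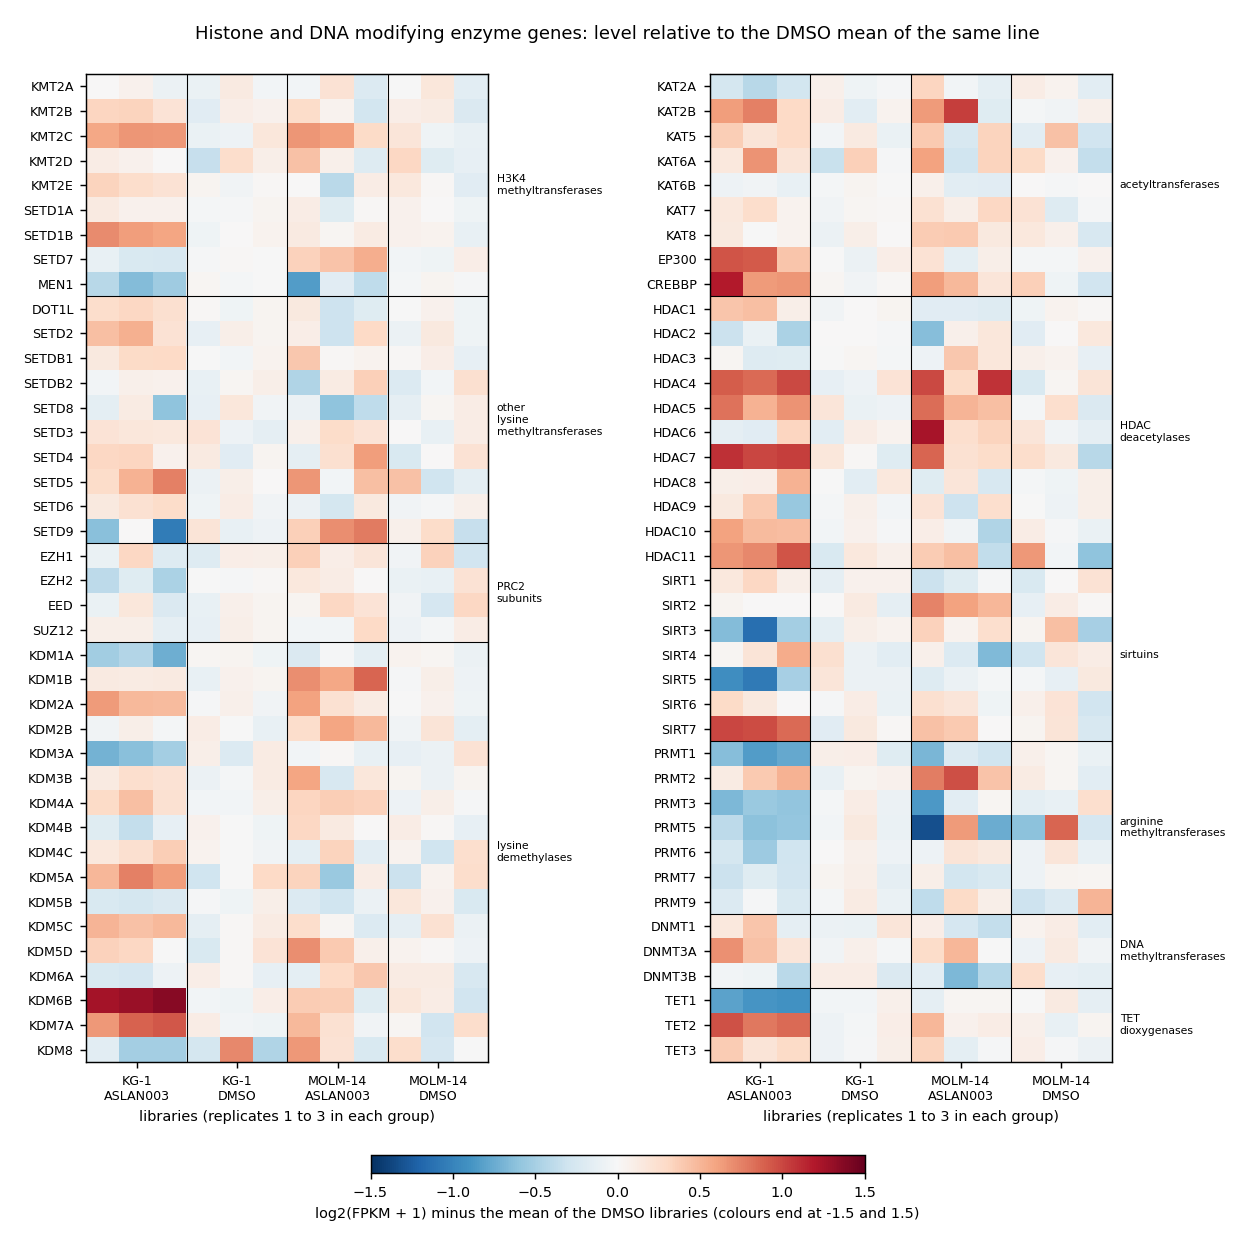
Each row is 1 of the 80 genes, grouped by role, and each column 1 library; colour gives log2(FPKM + 1) minus the mean of the 3 DMSO libraries of the same line, with the scale ending at -1.5 and 1.5. KDM6B, HDAC7 and SIRT7 are red in all 3 KG-1 ASLAN003 libraries, and SIRT5, TET1 and PRMT1 are blue there.

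Among the lysine demethylases, 5 of 17 rose and 2 fell in KG-1, against 19.4% higher and 14.3% lower of all genes. KDM6B (ENSG00000132510.10, chromosome 17, 7839904 to 7854796, plus strand), which takes methyl groups off lysine 27 of histone H3, had the largest rise of all members. Its level was 13.5, 14.03 and 14.7 FPKM in KG-1 with ASLAN003, against 4.94, 4.86 and 5.55 FPKM with DMSO. All treated libraries lay well above all controls, a log2 change of 1.30 ± 0.18 (SE; limma adjusted p = 0.00014). In MOLM-14, KDM6B was at 9.37, 9.31 and 6.02 FPKM with ASLAN003 and 7.99, 7.62 and 5.51 FPKM with DMSO. These groups overlapped, and KDM6B was not called in MOLM-14 (0.19 ± 0.18, adjusted p = 0.544).

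KDM7A, a demethylase of lysines 9 and 27, was at 0.97, 1.32 and 1.40 FPKM in KG-1 with ASLAN003 and 0.36, 0.22 and 0.20 FPKM with DMSO (log2 change 0.82, adjusted p = 0.00943). The groups did not overlap, but levels this low understate the change on the log2(FPKM + 1) scale: with a pseudocount of 0.1 the change was 1.90. KDM2A, which acts on lysine 36, rose by 0.53 and KDM5C, an X-linked lysine 4 demethylase, by 0.48 on the log2 scale (adjusted p = 0.00548 and 0.016). KDM5C lost its call without replicate 1 of ASLAN003 or of DMSO (adjusted p = 0.0529 to 0.0731). KDM4A, a demethylase of lysines 9 and 36, rose in both lines, by 0.32 in KG-1 (adjusted p = 0.0342) and 0.35 in MOLM-14 (adjusted p = 0.0497). Its KG-1 call was lost without ASLAN003 replicate 1 or 2 or DMSO replicate 1 or 2 (adjusted p = 0.0691 to 0.136), and its MOLM-14 call without any of the 12 libraries (0.0501 to 0.142). The KG-1 call was also lost after median centring (limma adjusted p = 0.166), quantile normalization (0.159) and rescaling (0.0871). With the replicate number as a block it was lost too (0.0683).

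KDM3A, a demethylase of lysine 9 with 20.1, 21.3 and 23.2 FPKM in treated KG-1 and 35.8, 28.8 and 36.5 FPKM in control KG-1, fell by 0.62 on the log2 scale (SE 0.13, adjusted p = 0.00267). KDM1A, the lysine-specific demethylase of lysine 4 targeted by drugs in leukaemia, was at 47.9, 50.7 and 41.0 FPKM with ASLAN003 and 70.2, 70.8 and 66.1 FPKM with DMSO in KG-1. The groups did not overlap, and KDM1A fell by 0.56 (SE 0.10, adjusted p = 0.00105). Its MOLM-14 levels overlapped, at 47.2, 54.4 and 49.8 FPKM with ASLAN003 and 57.4, 56.4 and 51.6 FPKM with DMSO (log2 change -0.13, adjusted p = 0.472).

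Its relative KDM1B (ENSG00000165097.13, chromosome 6, 18155329 to 18223853, plus strand), which also acts on lysine 4, showed the change in MOLM-14. It was at 39.6, 36.4 and 44.8 FPKM with ASLAN003, against 23.8, 25.7 and 22.7 FPKM with DMSO. The groups lay far apart, a log2 change of 0.72 ± 0.11 (adjusted p = 0.0017), and KDM1B was the only member whose MOLM-14 call held in every alternative run. In KG-1 it was at 20.1, 19.9 and 20.2 FPKM with ASLAN003 and 16.8, 19.2 and 18.9 FPKM with DMSO (0.13 ± 0.11, adjusted p = 0.407). KDM2B, a demethylase of lysine 36 that recruits a Polycomb complex, rose by 0.45 in MOLM-14 (adjusted p = 0.0269). This call was lost without ASLAN003 replicate 2 or 3 or DMSO replicate 1 or 3 of MOLM-14 (adjusted p = 0.0501 to 0.0964).

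**Figure D2:**
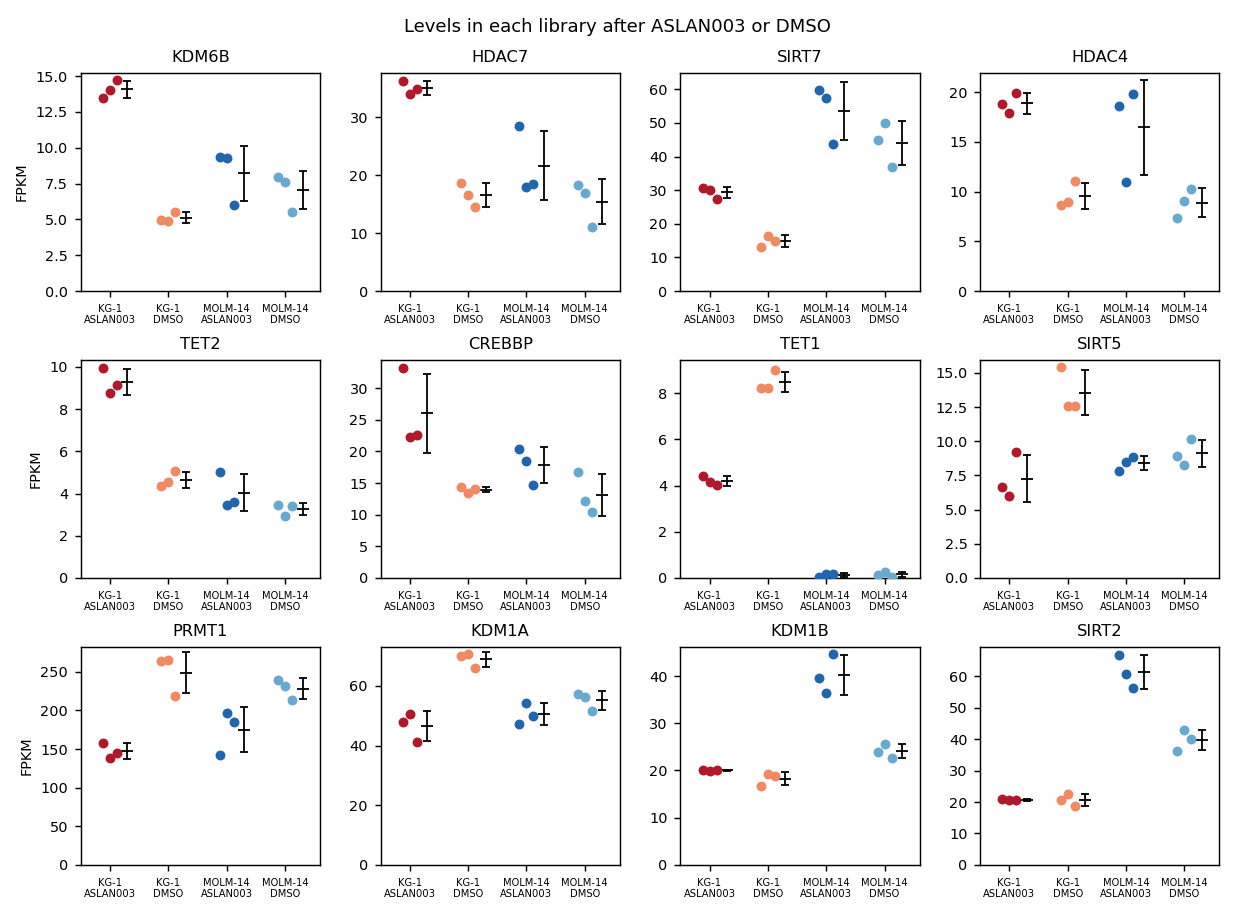
Points give the FPKM of each library, and the bars the mean and SD of the 3 libraries of a group, for 12 of the genes that changed. KDM6B, HDAC7, HDAC4, SIRT7, TET2 and CREBBP stand apart from their DMSO controls in KG-1, and KDM1B and SIRT2 in MOLM-14.

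Of the 11 HDAC genes, 5 rose and 0 fell in KG-1 (against 19.4% higher and 14.3% lower of all genes), and 2 rose and 0 fell in MOLM-14 (against 9.69% and 3.33%). At an unadjusted p under 0.05, limma had 6 higher and 0 lower in KG-1 and 4 higher and 0 lower in MOLM-14. HDAC7, HDAC4 and HDAC5 are class IIa deacetylases, which shuttle between nucleus and cytoplasm and bind MEF2 transcription factors. HDAC7 was at 36.3, 34.0 and 34.8 FPKM in KG-1 with ASLAN003 and 18.6, 16.7 and 14.5 FPKM with DMSO. All treated values were well above all controls, a log2 change of 1.04 ± 0.20 (adjusted p = 0.00148). In MOLM-14 it was at 28.5, 17.9 and 18.5 FPKM with ASLAN003 and 18.4, 16.9 and 11.1 FPKM with DMSO, where the groups overlapped (0.46 ± 0.20, adjusted p = 0.154).

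HDAC4 was at 18.8, 17.9 and 19.9 FPKM in KG-1 with ASLAN003 and 8.63, 8.99 and 11.1 FPKM with DMSO (log2 change 0.92 ± 0.20, adjusted p = 0.00345). In MOLM-14 it was at 18.6, 11.02 and 19.8 FPKM with ASLAN003 and 7.40, 9.03 and 10.3 FPKM with DMSO (0.79 ± 0.20, adjusted p = 0.0213). The MOLM-14 groups did not overlap, but replicate 2 of ASLAN003 lay near the controls, and the call was lost without ASLAN003 replicate 1 or 3 or DMSO replicate 1 or 2 (adjusted p = 0.0546 to 0.0808). HDAC5 rose in both lines: it was at 53.9, 43.8 and 48.7 FPKM with ASLAN003 and 34.3, 28.0 and 28.5 FPKM with DMSO in KG-1 (0.67 ± 0.15, adjusted p = 0.00392). In MOLM-14 it was at 44.3, 35.3 and 33.9 FPKM with ASLAN003 and 24.0, 29.2 and 20.8 FPKM with DMSO (0.60 ± 0.15, adjusted p = 0.0199). Its MOLM-14 call was lost without ASLAN003 replicate 1 or DMSO replicate 1 or 3 (0.0563 to 0.076). The HDAC4 and HDAC5 calls in MOLM-14 were also lost after median centring (0.0552 and 0.0666) and quantile normalization (0.0672 and 0.0597). HDAC9, the remaining class IIa gene, was not called in either line (log2 changes -0.01 and 0.05).

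HDAC10, a cytoplasmic polyamine deacetylase, was at 72.7, 66.5 and 66.3 FPKM with ASLAN003 and 46.3, 49.7 and 47.0 FPKM with DMSO in KG-1, and rose by 0.51 on the log2 scale (adjusted p = 0.00859). Of the nuclear class I enzymes, HDAC1 was at 172, 177 and 137 FPKM with ASLAN003 and 124, 130 and 132 FPKM with DMSO in KG-1 (0.32 ± 0.10, adjusted p = 0.0249). No treated value was below a control, but the call was lost without ASLAN003 replicate 1 or 2 or DMSO replicate 1 or 2 (adjusted p = 0.065 to 0.107). The HDAC1 call in KG-1 was also lost after median centring (limma adjusted p = 0.126) and rescaling (0.0788), and with no trend and no robust estimation (0.054). HDAC2 was at 204, 239 and 184 FPKM with ASLAN003 and 258, 258 and 253 FPKM with DMSO in KG-1 and was not called (-0.30 ± 0.18, adjusted p = 0.219), though it was without replicate 1 of MOLM-14 ASLAN003 (adjusted p = 0.0354). HDAC3 was not called in either line (log2 changes -0.12 and 0.17). HDAC11, the class IV enzyme, was at 2.10, 2.21 and 2.75 FPKM with ASLAN003 and 0.67, 1.17 and 1.05 FPKM with DMSO in KG-1. Its groups did not overlap, but it was not called (0.78 ± 0.31, adjusted p = 0.0707).

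The sirtuins are deacetylases that consume NAD, and 1 of 7 rose and 2 fell in KG-1 (against 19.4% and 14.3% of all genes). SIRT7, which acts in the nucleolus, was at 30.6, 29.97 and 27.4 FPKM with ASLAN003 and 13.0, 16.5 and 15.0 FPKM with DMSO. It rose by 0.94 on the log2 scale (SE 0.15, adjusted p = 0.00036), with no overlap. SIRT5 and SIRT3, which act in mitochondria, fell in KG-1. SIRT5 was at 6.62, 5.97 and 9.23 FPKM with ASLAN003 and 15.4, 12.6 and 12.6 FPKM with DMSO (-0.83 ± 0.16, adjusted p = 0.00191). SIRT3 was at 5.54, 3.68 and 6.23 FPKM with ASLAN003 and 8.29, 9.89 and 9.68 FPKM with DMSO (-0.76 ± 0.23, adjusted p = 0.0238). Every treated value of both genes was below every control. The SIRT3 call was lost without ASLAN003 replicate 2 or DMSO replicate 2 or 3 (adjusted p = 0.07 to 0.107).

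In MOLM-14, SIRT2, a mainly cytoplasmic deacetylase, was at 66.97, 60.9 and 56.3 FPKM with ASLAN003 and 36.4, 42.8 and 40.0 FPKM with DMSO. It rose by 0.61 (SE 0.11, adjusted p = 0.00404), with the groups far apart. In KG-1, SIRT2 was at 21.1, 20.6 and 20.6 FPKM with ASLAN003 and 20.6, 22.6 and 18.7 FPKM with DMSO (0.01 ± 0.11, adjusted p = 0.939).

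In KG-1, 19.4% of all genes rose and 14.3% fell. Of the 9 acetyltransferases, EP300 and CREBBP rose in KG-1 and 0 fell (1 lower at an unadjusted limma p under 0.05). These paralogues encode the broad histone acetyltransferases that act as coactivators at enhancers. EP300 was at 40.7, 40.0 and 27.9 FPKM in KG-1 with ASLAN003 and 20.5, 19.4 and 22.1 FPKM with DMSO (0.76 ± 0.15, adjusted p = 0.00175). CREBBP was at 33.3, 22.3 and 22.6 FPKM with ASLAN003 and 14.3, 13.5 and 14.1 FPKM with DMSO (0.83 ± 0.19, adjusted p = 0.00528). Neither gene's groups overlapped, and replicate 3 of EP300 and replicate 1 of CREBBP lay apart from the other treated libraries. In MOLM-14 neither was called (log2 changes 0.05 and 0.43, adjusted p = 0.868 and 0.163). The other 7, KAT2A, KAT2B, KAT5, KAT6A, KAT6B, KAT7 and KAT8, were called in neither line.

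Among the 9 genes of lysine 4 methylation, KMT2C, an enhancer methyltransferase, and SETD1B, a promoter methyltransferase, rose in KG-1 (against 19.4% of all genes). KMT2C was at 13.4, 14.3 and 14.1 FPKM with ASLAN003 and 7.99, 8.16 and 9.84 FPKM with DMSO (0.63, adjusted p = 0.00601). SETD1B was at 11.01, 10.3 and 10.1 FPKM with ASLAN003 and 6.0002, 6.37 and 6.61 FPKM with DMSO (0.65, adjusted p = 0.000983). KMT2C rose in MOLM-14 too, to 11.1, 10.8 and 8.34 FPKM with ASLAN003 against 7.70, 6.32 and 6.09 FPKM with DMSO (0.52, adjusted p = 0.0381). This call was lost without any of 8 libraries (adjusted p = 0.0542 to 0.109): KG-1 ASLAN003 1 and 2, KG-1 DMSO 1 and 2, MOLM-14 ASLAN003 1 and 2 and MOLM-14 DMSO 2 and 3.

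SETD7, which adds a single methyl group to lysine 4 and to other proteins, was at 15.6, 16.4 and 17.9996 FPKM with ASLAN003 and 11.66, 11.4 and 12.9 FPKM with DMSO in MOLM-14 (0.44, adjusted p = 0.0292). The call was lost without ASLAN003 replicate 3 or DMSO replicate 1 or 2 (0.0593 to 0.0957). In KG-1 SETD7 was at 8.49, 7.77 and 7.65 FPKM with ASLAN003 and 9.16, 9.34 and 9.23 FPKM with DMSO (-0.19, adjusted p = 0.237).

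MEN1 encodes menin, the scaffold that ties KMT2A and its fusions to their target genes. It was at 27.8, 23.5 and 25.6 FPKM in KG-1 with ASLAN003 and 38.4, 36.7 and 37.5 FPKM with DMSO (-0.54 ± 0.15, adjusted p = 0.0142), without overlap, and the call was lost without ASLAN003 replicate 2 (adjusted p = 0.0578). In MOLM-14 it was at 16.3, 26.6 and 22.8 FPKM with ASLAN003 and 29.4, 30.9 and 29.6 FPKM with DMSO. All treated values were below all controls there as well (-0.46 ± 0.15, adjusted p = 0.0596), and it was called without ASLAN003 replicate 2 of MOLM-14 (adjusted p = 0.0165). MEN1 was also called lower in MOLM-14 after median centring (limma adjusted p = 0.0243), quantile normalization (0.034) and rescaling (0.038). The median of all genes moved by -0.15, -0.10 and -0.04 under these. KMT2A itself did not change beyond the spread in either line: 4.19, 4.42 and 3.86 FPKM with ASLAN003 and 3.83, 4.70 and 4.05 FPKM with DMSO in KG-1, and 7.92, 9.68 and 6.92 FPKM with ASLAN003 and 8.10, 9.28 and 7.23 FPKM with DMSO in MOLM-14 (log2 changes -0.01 in both). FPKM per gene does not separate the fusion transcript from the normal KMT2A transcript.

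DOT1L, the methyltransferase of lysine 79 that KMT2A fusions recruit, was at 48.2, 49.6 and 47.4 FPKM with ASLAN003 and 40.3, 38.1 and 41.1 FPKM with DMSO in KG-1. It was not called (0.27, adjusted p = 0.0877), though it was without replicate 1 of MOLM-14 ASLAN003 (0.0196). Of the other 9 genes grouped with DOT1L, which are SETD genes placed there by symbol, 0 were called in either line (against 33.7% and 13.0% of all genes). With DOT1L, 3 were higher and 1 lower in KG-1 and 1 higher and 0 lower in MOLM-14 at an unadjusted limma p under 0.05.

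Of the 4 PRC2 genes, which encode the complex that methylates lysine 27, EZH2 was called in KG-1 (against 33.7% of all genes). Its catalytic subunit EZH2 was at 23.9, 27.9 and 22.5 FPKM with ASLAN003 and 31.5, 31.4 and 32.2 FPKM with DMSO (-0.35 ± 0.12, adjusted p = 0.0408). The groups did not overlap, but the call was lost without any library of KG-1 but ASLAN003 replicate 2 (adjusted p = 0.093 to 0.129) and with the replicate number as a block (0.0747). EZH1, EED and SUZ12 had KG-1 log2 changes of 0.01, -0.05 and 0.01, and none of the 4 genes was called in MOLM-14 (0.07 to 0.21, against 13.0% of all genes called).

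Arginine methyltransferases modify histones, splicing factors and ribosomal proteins, and 2 of 7 fell in KG-1 (against 14.3% of all genes). PRMT1, which makes most asymmetric dimethylarginine, was at 158, 139 and 145 FPKM with ASLAN003 and 264, 265 and 218 FPKM with DMSO in KG-1 (-0.75 ± 0.12, adjusted p = 0.000553). In MOLM-14 PRMT1 was at 142, 197 and 185 FPKM with ASLAN003 and 240, 232 and 214 FPKM with DMSO, again without overlap but not called (-0.40 ± 0.12, adjusted p = 0.0542). PRMT3, which methylates a ribosomal protein, fell by 0.61 in KG-1 (adjusted p = 0.0343), and lost its call without any of the 6 KG-1 libraries (0.0625 to 0.11). PRMT2, a weak arginine methyltransferase and coactivator, rose in MOLM-14, to 37.0, 42.5 and 28.99 FPKM with ASLAN003 against 23.3, 21.7 and 19.0 FPKM with DMSO (0.72 ± 0.15, adjusted p = 0.00815).

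TET dioxygenases oxidise methylcytosine, and 1 of the 3 rose and 1 fell in KG-1 (against 19.4% and 14.3% of all genes). TET1 (ENSG00000138336.8, chromosome 10, 68560656 to 68694482, plus strand) was at 4.43, 4.14 and 4.03 FPKM with ASLAN003 and 8.22, 8.23 and 8.99 FPKM with DMSO. It fell by 0.87 on the log2 scale (SE 0.16, adjusted p = 0.0014), and this call was lost with a pseudocount of 0.1 (0.0788). TET2, often mutated in myeloid malignancy, was at 9.97, 8.76 and 9.15 FPKM with ASLAN003 and 4.35, 4.54 and 5.07 FPKM with DMSO (0.86 ± 0.16, adjusted p = 0.00128). The groups of both genes lay far apart, in opposite directions. TET3 was at 8.08, 6.97 and 7.51 FPKM with ASLAN003 and 5.65, 5.91 and 6.44 FPKM with DMSO and was not called (0.28 ± 0.15, adjusted p = 0.182). In MOLM-14, TET1 did not exceed 0.26 FPKM, and TET2 and TET3 were not called (0.23 and 0.06).

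Of the 3 DNA methyltransferases, 0 were called in either line, against 33.7% of all genes in KG-1 and 13.0% in MOLM-14. At an unadjusted limma p under 0.05, 1 was higher in KG-1 and 1 lower in MOLM-14. DNMT3A, a de novo methyltransferase often mutated in this leukaemia, was at 32.5, 27.3 and 22.6 FPKM with ASLAN003 and 19.2, 21.1 and 19.4 FPKM with DMSO in KG-1 (0.43 ± 0.16, adjusted p = 0.0574). Its groups did not overlap, and it was called without KG-1 ASLAN003 replicate 3 or MOLM-14 ASLAN003 replicate 2 or 3 (0.0287 to 0.0395). DNMT3B, the other de novo enzyme, had log2 changes of -0.17 in KG-1 and -0.42 in MOLM-14, and DNMT1, the maintenance enzyme, of 0.14 and -0.17.

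**Figure D3:**
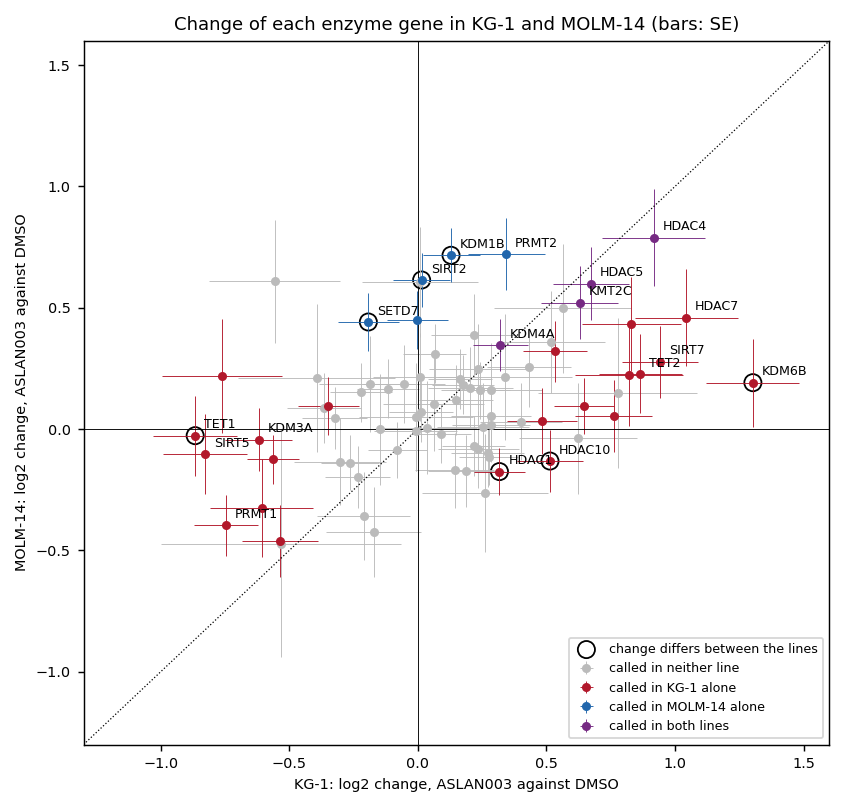
Each point is 1 of the 80 genes, with its log2 change after ASLAN003 in KG-1 on the x axis and in MOLM-14 on the y axis, bars of 1 SE, colours for the lines in which it was called and circles where the change itself differed between the lines. KDM6B lies far to the right at 1.30 and 0.19, and KDM1B and SIRT2 lie near 0 on the x axis and at 0.72 and 0.61 on the y axis.

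The change itself differed between the lines for 7 members (8.75%, against 9.94% of all genes), 3 with a higher change in KG-1 and 4 with a lower one (5.05% and 4.89% of all genes). The difference, KG-1 minus MOLM-14, was 1.11 ± 0.26 for KDM6B (adjusted p = 0.0169), and its adjusted p stayed at 0.0476 or below in every alternative. HDAC10 differed by 0.65 (0.0432) and HDAC1 by 0.49 (0.0421). TET1 differed by -0.84 (0.0389), SETD7 by -0.63 (0.0327), SIRT2 by -0.60 (0.0301) and KDM1B by -0.59 (0.0335). TET1 passed the filter through its KG-1 levels alone: in MOLM-14 it did not exceed 0.26 FPKM, and with a pseudocount of 0.1 its difference was -0.90 (adjusted p = 0.382). Without MOLM-14 ASLAN003 replicate 1, 10 members had a higher change in KG-1 and 9 a lower one; without any other single library it was 1 to 3 and 0 to 3. Apart from KDM6B each lost its call without several libraries. HDAC1 lost it without any but KG-1 ASLAN003 3 and MOLM-14 ASLAN003 1 (adjusted p = 0.061 to 0.112), HDAC10 without any but the MOLM-14 ASLAN003 libraries (0.0541 to 0.109) and TET1 without any but MOLM-14 ASLAN003 1 (0.0538 to 0.0912). SETD7 lost it without any but MOLM-14 ASLAN003 1 and 2 and DMSO 3 (0.0562 to 0.0798). KDM1B lost it without any but KG-1 DMSO 1, MOLM-14 ASLAN003 1 and 2 and MOLM-14 DMSO 2 (0.0519 to 0.0903), and SIRT2 without the KG-1 ASLAN003 libraries, KG-1 DMSO 1 and 2 or MOLM-14 DMSO 1 and 3 (0.0506 to 0.0859).

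Between the DMSO groups, the lines themselves differed for 38 members (47.5%, against 49.2% of all genes), 21 higher and 17 lower in KG-1 than in MOLM-14 (27.1% and 22.1% of all genes). Libraries of the lines did not overlap for 48 of the 80 (60%, against 63.3%). This comparison uses the same DMSO libraries as those above. KDM6A (ENSG00000147050.14, chromosome X, 44873177 to 45112602, plus strand), an X-linked demethylase of lysine 27, was at 0.29, 0.22 and 0.11 FPKM in KG-1 with DMSO, against 7.71, 7.75 and 5.76 FPKM in MOLM-14 with DMSO. The lines lay far apart (log2 difference -2.73 ± 0.20, adjusted p = 1.99e-07, and -4.58 with a pseudocount of 0.1). TET1 was the reverse, at 8.22, 8.23 and 8.99 FPKM in KG-1 and 0.15, 0.26 and 0.05 FPKM in MOLM-14 (3.04 ± 0.16, adjusted p = 1.36e-08, and 5.17 with a pseudocount of 0.1). KDM6A passed the filter through its MOLM-14 levels alone, and TET1 through its KG-1 levels alone. Both tests thus rest on genes admitted by the line where they are high.

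KDM5B, a lysine 4 demethylase, was at 34.9, 33.5 and 37.4 FPKM in KG-1 and 8.59, 7.88 and 6.26 FPKM in MOLM-14 (2.09, adjusted p = 4.36e-08). DNMT3A was at 19.2, 21.1 and 19.4 FPKM in KG-1 and 5.13, 6.05 and 5.20 FPKM in MOLM-14 (1.70, adjusted p = 2.62e-06), and DNMT3B at 14.4, 14.3 and 11.3 FPKM in KG-1 and 7.87, 5.77 and 5.66 FPKM in MOLM-14 (0.95). HDAC6, the tubulin deacetylase, was at 50.7, 61.3 and 59.0 FPKM in KG-1 and 24.0, 20.2 and 19.0 FPKM in MOLM-14 (1.40). None of these genes had overlapping groups.

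Lower in KG-1 were SIRT7 at 13.0, 16.5 and 15.0 FPKM, against 45.0, 49.99 and 36.9 FPKM in MOLM-14 (-1.502), and HDAC9 at 6.42, 6.96 and 6.35 FPKM, against 20.2, 19.2 and 21.6 FPKM in MOLM-14 (-1.49). KDM7A differed by -1.25 (-2.56 with a pseudocount of 0.1) and SETD1B by -1.11. KDM7A passed the filter on low values through MOLM-14 alone, so its test rests on a gene admitted by the line where it is high. KMT2A was lower in KG-1 too (-0.82 ± 0.16, adjusted p = 0.00101), without overlap. Of the PRC2 genes, EZH1 (0.63) and SUZ12 (0.34) were higher and EED (-0.44) was lower in KG-1, while EZH2 was not called (0.16). EZH1 lost its call without MOLM-14 DMSO 3 (adjusted p = 0.0537), EED without any DMSO library but MOLM-14 DMSO 2 (0.0598 to 0.157) and SUZ12 without KG-1 ASLAN003 1 or 2, KG-1 DMSO 2 or 3 or MOLM-14 DMSO 1 or 2 (0.0516 to 0.131). KDM1A was higher in KG-1 by 0.32, and this call was lost without KG-1 DMSO 1 or 2 or MOLM-14 DMSO 3 (0.0617 to 0.0722).

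Of the other members, KAT6B (0.93), KDM4B (0.89), PRMT2 (0.88), HDAC2 (0.76), KMT2E (0.53), KAT8 (0.53) and KDM3A (0.50) were higher in KG-1. SIRT3 (0.69), SIRT5 (0.52), KDM5C (0.43), PRMT6 (0.42), HDAC8 (0.41) and KDM2A (0.34) were higher too, but each lost its call without at least 1 DMSO library (highest adjusted p = 0.115, 0.0832, 0.0738, 0.0936, 0.156 and 0.118 in this order). SIRT4 (-1.10, and -1.88 with a pseudocount of 0.1), SIRT2 (-0.92), PRMT7 (-0.71), KDM2B (-0.69), SETDB1 (-0.68), SETD3 (-0.54) and SIRT6 (-0.52) were lower in KG-1. Of these, SIRT4 passed the filter on low values through MOLM-14 alone, the line where it is high. KAT6A (-0.73), KDM1B (-0.38) and SETD7 (-0.34) were lower as well and lost their calls without at least 1 DMSO library (highest adjusted p = 0.136, 0.0585 and 0.094).

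**Figure D4:**
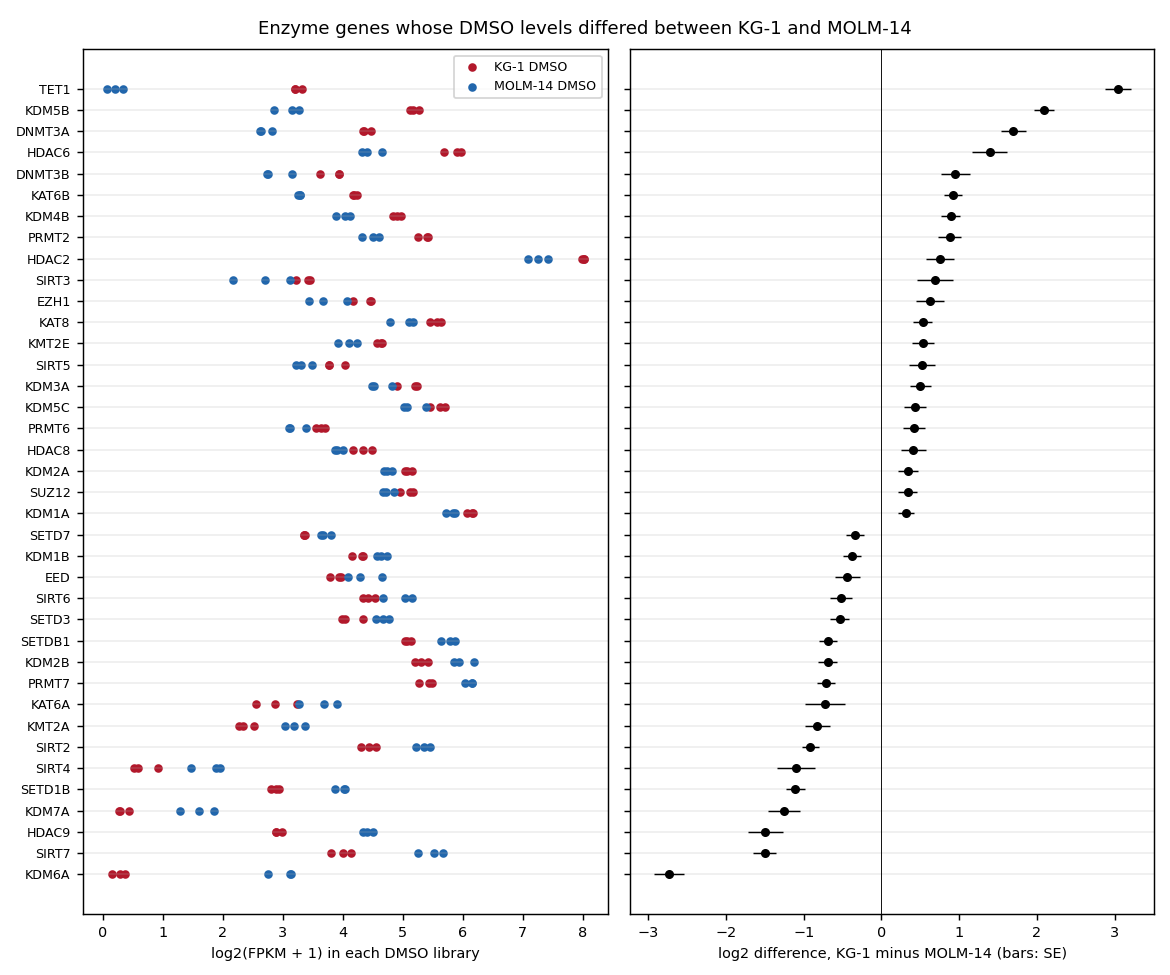
The left panel gives log2(FPKM + 1) in each DMSO library for the 38 genes that differed between the lines, and the right panel the log2 difference, KG-1 minus MOLM-14, with bars of 1 SE. TET1 at 3.04 and KDM6A at -2.73 lie at the ends, and the points of most genes form separate groups. TET1 passed the filter on low values through KG-1 alone, and KDM6A, KDM7A and SIRT4 through MOLM-14 alone.

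Lists of partner genes put the members beside the rest of their pathways; of all genes, 19.4% rose and 14.3% fell in KG-1, and 9.69% rose and 3.33% fell in MOLM-14. Of 6 target genes of KMT2A fusions, HOXA10 (0.66), MEIS1 (0.57) and HOXA9 (0.44) were among 4 that rose in KG-1, and 0 were called in MOLM-14 (0 also at an unadjusted limma p under 0.05; median log2 changes 0.40 and -0.04, against 0.05 and 0.08 over all genes). These 3 calls were lost without single KG-1 libraries: HOXA10 without ASLAN003 3 or DMSO 2 or 3 (adjusted p = 0.0521 to 0.0554), MEIS1 without any of the 6 (0.0542 to 0.081) and HOXA9 without ASLAN003 1 or 2 or DMSO 1 or 2 (0.0836 to 0.141). HOXA9 and MEIS1 also lost their calls after median centring (0.102 and 0.0765) and quantile normalization (0.104 and 0.0734). HOXA9 lost its call after rescaling (0.0685) and with the replicate block (0.069) too, whereas HOXA10 kept its call in these settings. With DMSO, 4 of the 6 target genes were lower in KG-1, against 22.1% of all genes. HOXA9 averaged 8.30 ± 1.45 FPKM in KG-1 and 69.2 ± 9.61 FPKM in MOLM-14 (SD, n = 3 each, log2 difference -2.92, limma adjusted p = 7.31e-09).

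Of 12 partners of the lysine 4 methyltransferases, 1 rose and 3 fell in KG-1, among them PAXIP1 (-0.53), and 0 were called in MOLM-14 (1 higher unadjusted; medians -0.01 and 0.05). Of 6 fusion partners and elongation factors, MLLT1 (-0.29) was called in KG-1 and 0 in MOLM-14 (1 lower unadjusted; medians 0.00 and 0.05), and that call was lost without any of the 6 KG-1 libraries or MOLM-14 DMSO 1 or 2 (0.0527 to 0.122). Of 7 accessory PRC2 genes, JARID2 (0.80) rose and RBBP7 (-0.46) fell in KG-1, and 0 were called in MOLM-14 (1 higher unadjusted; medians 0.01 and 0.11). Of 18 PRC1 genes, 3 rose and 1, CBX6 (-0.59), fell in KG-1, and RYBP (0.62) rose in MOLM-14 (medians 0.08 and 0.14). The RYBP call was lost without MOLM-14 ASLAN003 1 or 3 or DMSO 1 or 2 (0.0547 to 0.101). Of 4 bromodomain readers, 0 were called in either line (1 lower unadjusted in each; medians 0.02 and -0.10).

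Of 21 genes of deacetylase complexes, 4 rose and 3 fell in KG-1 and 2 rose in MOLM-14 (medians 0.17 and -0.02). TBL1X, a corepressor subunit, rose in both lines, by 1.09 and 0.87, and its MOLM-14 call was lost without MOLM-14 DMSO 3 (adjusted p = 0.0506). Of 27 genes of acetyltransferase complexes, 5 rose and 2 fell in KG-1, and TADA2B (0.73) and KANSL2 (0.47) rose in MOLM-14 (medians 0.07 and 0.12). Of 8 partners of DNA methylation, 2 rose and 1 fell in KG-1, led by GADD45A (1.19), and 1 fell in MOLM-14 (medians 0.16 and -0.02). That gene was UHRF1, which brings DNMT1 to replicated DNA, at 73.6, 79.0 and 77.4 FPKM with ASLAN003 and 112, 128 and 120 FPKM with DMSO in MOLM-14 (-0.64, adjusted p = 0.00149).

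Of 26 other histone modifying enzymes, 9 rose and 5 fell in KG-1, and 2 rose and 0 fell in MOLM-14 (5 higher and 0 lower unadjusted; medians 0.12 and 0.09). PADI4, which converts histone arginine to citrulline in granulocytes, was at 195, 177 and 280 FPKM in KG-1 with ASLAN003 and 4.97, 9.45 and 7.29 FPKM with DMSO. It rose by 4.73 on the log2 scale (adjusted p = 1.74e-06). SMYD3, a lysine methyltransferase, was at 160, 198 and 165 FPKM with ASLAN003 and 82.5, 84.4 and 85.0 FPKM with DMSO in MOLM-14 and rose by 1.04 (adjusted p = 0.000265).

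Of 11 genes that supply or clear the cofactors of these enzymes, 0 rose (1 unadjusted) and 8 fell in KG-1, and 2 rose and 1 fell in MOLM-14 (medians -0.43 and 0.21, against 0.05 and 0.08 over all genes). Of all genes, 14.3% fell in KG-1 and 3.33% in MOLM-14. ACSS2, which makes acetyl-CoA from acetate, was at 33.6, 35.7 and 38.5 FPKM in KG-1 with ASLAN003 and 150, 116 and 102 FPKM with DMSO (-1.73, adjusted p = 1.99e-05). In MOLM-14 it was at 25.6, 33.4 and 19.6 FPKM with ASLAN003 and 12.4, 10.0 and 13.0 FPKM with DMSO (1.06, adjusted p = 0.00362). The groups lay apart in opposite directions, and the changes differed by -2.79 between the lines (adjusted p = 0.000101). AHCY, which removes the by-product of methylation, fell in both lines, with log2 changes of -1.202 and -0.40 (adjusted p = 4.64e-06 and 0.0251), and its MOLM-14 call was lost without MOLM-14 DMSO 1 or 2 (0.081 to 0.0926).

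The members together took 0.365% of the listed FPKM in KG-1 with ASLAN003 and 0.318% with DMSO, and 0.315% in MOLM-14 with ASLAN003 and 0.281% with DMSO. Their summed level was 2488 ± 102 FPKM with ASLAN003 and 2441 ± 43 FPKM with DMSO in KG-1 (SD, n = 3). In MOLM-14 it was 2432 ± 83 and 2361 ± 150 FPKM. The total of the listed FPKM was lower with ASLAN003, at 674153 to 691773 against 754157 to 778674 in KG-1. In MOLM-14 this total was 738331 to 809009 against 831135 to 845458. The shares therefore moved with the total as well as with the members. The highest average levels in KG-1 with DMSO were those of HDAC2 (256 FPKM), PRMT1 (249 FPKM) and HDAC1 (129 FPKM). For several named genes the assignment of reads is uncertain, since no source used here states how strand was handled in counting. HDAC7, SIRT2, SIRT3, KDM4A, KDM2B, PRMT2, DOT1L, HDAC2, KMT2E, SETDB1, PRMT7, KAT5 and KAT7 overlap at least 1 gene on the opposite strand. SIRT7, HDAC10, PRMT1, DNMT1 and KAT8 overlap at least 1 on the same strand. KDM6A and KDM5C have Y-linked homologues (UTY and KDM5D) with which they could share reads.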

How the data were processed

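RNA-seq was analysed for 12 libraries. Per the labels, libraries were stranded, made from total RNA and read in pairs. The submitters' processing notes list bcl2fastq (2.17.1.14), the aligner STAR (2.4.2a), the quantifier RSEM (1.2.25) and the build GRCh38 (hg38); no source used here names the annotation. The authors deposited log2 values, which by their values are log2(FPKM + 1). FPKM is relative to the whole library, so abundant transcripts can move all others. All 12 columns were matched to samples by name. Coordinates are from GENCODE 29 (99.3% of identifiers found) and promoters from RefSeq.

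The table holds no counts. Depth was estimated from 68 to 102 low values per library, of which 79.4% to 88.2% came within 0.15 fragment of whole (30% for uniform values). Genes reaching 1 FPKM in 3 or more libraries (13353) were tested with limma 3.58.1 in R 4.3.3: 4 group means on log2(FPKM + 1), pseudocount 1, trended robust eBayes, two-sided, Benjamini-Hochberg adjustment over all genes, called at adjusted p under 0.05. Changes are ASLAN003 minus DMSO, and line differences KG-1 minus MOLM-14. The scale understates changes of low genes. The labels do not say that libraries came from separate cultures, so p-values measure only the spread between them, which may be technical. Each gene has 1 spread estimate over the 4 groups, so scatter in 1 line enters the p-values of the other. Scripts were tested on simulated data.

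Members, lists and settings were chosen with earlier results of these data known. Every called member is named. Full statistics are given for the 5 largest rises and falls after ASLAN003 in each line, among those averaging 2 FPKM or more in 1 group. For differences between the lines, some genes are given without SE or p-value. Fixed leukaemia enzymes and up to 3 called genes of each partner list are described as well. Alternatives were other filters and pseudocounts, 3 scalings, the comparison's libraries alone, no trend, library weights, a replicate block and each library left out.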

Additional observations from a re-analysis of the deposited data

Results flagged for a closer look

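The change after ASLAN003 differed between KG-1 and MOLM-14, by the test of the difference itself, for 7 of the enzyme genes. As log2 KG-1 minus MOLM-14, KDM6B differed by 1.11, HDAC10 by 0.65 and HDAC1 by 0.49, with higher changes in KG-1. TET1 differed by -0.84, SETD7 by -0.63, SIRT2 by -0.60 and KDM1B by -0.59. TET1 did not exceed 0.26 FPKM in the MOLM-14 libraries and passed the filter through KG-1 alone, and its difference had an adjusted p of 0.382 with a pseudocount of 0.1. For KDM6B the call held in every alternative, and for each of the other 6 it was lost in at least 1.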

How the results depend on the processing

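No called result reversed. Over all alternatives, 17 of 25 KG-1 calls, 1 of 9 MOLM-14 calls, 1 of 7 differences and 25 of 38 line differences were kept, and the cause was not tested. Without 1 library, higher and lower calls ranged from 13 to 20 and 6 to 13 in KG-1, 4 to 8 and 0 to 2 in MOLM-14, 1 to 10 and 0 to 9 for the difference, and 14 to 23 and 13 to 20 for the lines. With only the libraries of the comparison, KG-1 had 27 higher and 14 lower and MOLM-14 had 1 higher; with library weights, KG-1 had 28 and 15, MOLM-14 had 4 higher and the difference 10 higher. Median centring gave 14 lower in KG-1, 3 and 3 in MOLM-14 and 6 higher for the difference; quantile normalization gave 14 lower in KG-1, 3 and 2 in MOLM-14 and 5 higher for the difference. Rescaling gave 2 lower and a filter at 5 FPKM 1 lower in MOLM-14.

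Deviations from the group means had correlations of -0.0019 to 0.1005 between same-numbered libraries, over 9 pairs. Between differently numbered libraries the correlations were -0.0826 to 0.0491. These values do not settle whether the numbers mark paired samples or a shared batch, and the main fit treated the libraries as unpaired. With the replicate number as a block, KG-1 had 18 higher and 10 lower, MOLM-14 8 and 1, the difference 3 and 0, and the lines 19 and 18. Depth limits genes below about 1 FPKM, such as KDM6A in KG-1 and TET1 in MOLM-14.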

Other observations

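PRMT5, the main enzyme of symmetric arginine dimethylation, was at 56.5, 223 and 84.6 FPKM in MOLM-14 with ASLAN003 and 92.4, 262 and 120 FPKM with DMSO, so that replicate 2 was high in both groups. In KG-1 it was at 50.5, 43.1 and 44.1 FPKM with ASLAN003 and 64.6, 73.7 and 62.2 FPKM with DMSO, without overlap but not called (limma adjusted p = 0.419). The SE of its log2 change was 0.47 in both lines, since the fit shares 1 spread over all 12 libraries. The KG-1 p-value thus includes the spread of the MOLM-14 libraries. PRMT5 overlaps an antisense gene, PRMT5-AS1.

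HDAC6 was at 50.7 FPKM in replicate 1 of MOLM-14 with ASLAN003 and 25.2 and 26.7 FPKM in the other treated libraries. HDAC2 in the same library was at 96.4 FPKM, and at 159 and 170 FPKM in the others.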
